A study of Homo sapiens with 8 samples.

Results

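The comparison concerned the H3K9ac and H3K27ac peaks of stromal spheroids of MIA PaCa-2 cells, an established line from a human pancreatic carcinoma. The members were the 35419 peaks of the stromal H3K9ac and H3K27ac lists, of 57049 peaks in the series. A peak was placed with a partner when the centre of a peak of the other mark lay within 1 kb of its own centre. By this rule 13176 of 20326 H3K9ac peaks had H3K27ac and 7150 had none, and 12900 of 15093 H3K27ac peaks had H3K9ac and 2193 had none. The study asked how surroundings that resemble tumour stroma act on histone acetylation in these cells. Stromal spheroids grew in a cross-linked hyaluronan hydrogel that held Gelin-S, a collagen-derived component, under low-serum medium conditioned by immortalized myofibroblasts from resected human pancreatic ductal tumours. Astromal spheroids, whose lists serve here to place gene starts and to set beside the stromal values, grew in the same gel with water in place of Gelin-S and under plain low-serum DMEM. The myofibroblasts themselves were not in the gel, and the cells are of 1 cancer line. Each mark and condition had 1 library, so no difference below has a replicate check and none has a p-value.

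H3K9ac and H3K27ac are acetyl groups on lysines of the tail of histone H3. Both are placed by acetyltransferases (H3K9ac largely by GCN5 and PCAF, H3K27ac largely by p300 and CBP) and removed by deacetylases. Both mark the nucleosomes that flank the starts of active genes, and H3K27ac is also widely used to mark active enhancers. Acetyl-CoA, a product of central metabolism, is the donor of the acetyl group.

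Promoters with both marks, with H3K9ac alone and with H3K27ac alone differed in the letters of their sequence, as described near the end. The 6 printed here are the 250 bases before the start of genes that stand high in each of these 3 classes. They are taken from RefSeq (GRCh38.p14), read 5' to 3' on the strand of the gene. Capitals mark matches to 4 motifs on either strand. These are the CCAAT box, spelled by its name, the GC box with the letters GGGCGG, the TATA box with the letters TATAAA, and the core of ETS factor sites with the letters CCGGAAG. KMT2E and UBE2D3 had both marks, KARS and FAM117B had H3K9ac alone, and HEXIM1 and HIST2H2BE had H3K27ac alone. The positions are KMT2E at chr7:105013955-105014204 (plus strand), UBE2D3 at chr4:102868896-102869145 (minus strand), KARS at chr16:75647666-75647915 (minus strand), FAM117B at chr2:202634719-202634968 (plus strand), HEXIM1 at chr17:45148225-45148474 (plus strand) and HIST2H2BE at chr1:149886683-149886932 (minus strand). The peaks are on hg19, so no distance between a peak and these letters was computed, and a gene with several starts is shown at the 1 start of the table. UBE2D3 had peaks at more than 1 start, and the printed start may not be the one with its highest peaks.
KMT2E: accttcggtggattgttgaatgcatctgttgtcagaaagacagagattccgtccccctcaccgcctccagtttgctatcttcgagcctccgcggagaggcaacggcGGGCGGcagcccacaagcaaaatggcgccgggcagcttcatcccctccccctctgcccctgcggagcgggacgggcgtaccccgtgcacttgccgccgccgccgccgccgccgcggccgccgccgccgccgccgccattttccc
UBE2D3: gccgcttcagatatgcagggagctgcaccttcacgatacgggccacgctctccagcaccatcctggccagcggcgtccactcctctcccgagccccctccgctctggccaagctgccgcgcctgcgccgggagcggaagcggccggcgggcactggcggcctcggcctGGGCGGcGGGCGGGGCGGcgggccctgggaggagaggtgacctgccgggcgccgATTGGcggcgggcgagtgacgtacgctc
KARS: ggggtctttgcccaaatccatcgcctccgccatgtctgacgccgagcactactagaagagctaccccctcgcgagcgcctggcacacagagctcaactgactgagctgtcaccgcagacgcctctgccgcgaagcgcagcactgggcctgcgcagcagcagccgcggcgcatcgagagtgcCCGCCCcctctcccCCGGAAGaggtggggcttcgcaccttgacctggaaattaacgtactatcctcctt
FAM117B: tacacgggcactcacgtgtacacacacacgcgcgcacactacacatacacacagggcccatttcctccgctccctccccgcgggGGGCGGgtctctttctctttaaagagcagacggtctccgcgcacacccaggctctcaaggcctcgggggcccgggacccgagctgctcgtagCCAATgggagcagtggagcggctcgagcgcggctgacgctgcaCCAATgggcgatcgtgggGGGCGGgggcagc
HEXIM1: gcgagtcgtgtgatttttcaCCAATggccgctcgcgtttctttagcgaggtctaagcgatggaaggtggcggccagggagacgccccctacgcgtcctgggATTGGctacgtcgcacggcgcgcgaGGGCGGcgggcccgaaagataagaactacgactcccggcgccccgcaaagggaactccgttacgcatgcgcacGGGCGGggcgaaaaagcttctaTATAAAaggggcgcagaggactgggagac
HIST2H2BE: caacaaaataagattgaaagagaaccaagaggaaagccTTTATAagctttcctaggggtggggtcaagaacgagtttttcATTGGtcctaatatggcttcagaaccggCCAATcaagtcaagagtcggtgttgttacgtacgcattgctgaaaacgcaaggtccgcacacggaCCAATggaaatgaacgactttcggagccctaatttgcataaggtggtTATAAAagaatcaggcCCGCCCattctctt
HIST2H2BE, a histone H2B gene, held 3 CCAAT boxes and 2 TATA boxes, and its 250 bases were 44.8% G and C. HEXIM1, which encodes an inhibitor of the elongation factor P-TEFb, held 2 CCAAT boxes and 1 TATA box. The other 4 promoters held no TATA box and were 64.0% (KARS) to 75.2% (UBE2D3) G and C. Of these 6 only KARS held an ETS core. The 6 are examples and need not be typical of their class. Of 29 promoters with H3K27ac alone 17.2% held a TATA box, as given near the end. SPAG7 and HNRNPUL2, not printed, had more H3K27ac than the 2 genes printed for that class. KARS and FAM117B each had an H3K27ac peak 1 to 5 kb from a start, unlike most of the genes named below with H3K9ac alone.

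Levels are the tags, that is aligned reads, in a peak, normalised by the authors to 10000000 tags. The H3K9ac library held an estimated 7569604 tags and the H3K27ac library 17190695. The median peak held 20 tags in both lists, with a range of 8 to 219 for H3K9ac and 9 to 143 for H3K27ac. Peaks had 1 fixed width, 210 bp for H3K9ac and 175 bp for H3K27ac, and held 5.81% and 1.97% of the tags. The marks came from different antibodies, depths and, as far as the sources used here tell, different calling, so levels were compared only as ranks within a list. KRT8, KRT18 and VIM, which this line expresses, had both marks at the promoter. CDKN2A, CDKN2B and MTAP, which this line is known to have lost, were named by no H3K9ac peak. None of 5 acinar, 3 endothelial and 4 leukocyte markers was named by an H3K9ac peak, so their starts were not placed and H3K27ac there was not assessed. Of 10 fibroblast markers, 3 had promoter H3K9ac (COL1A1, COL1A2 and ACTA2, at 17.2 to 30.4 normalised tags) and COL1A2 also had H3K27ac (20.4). Of 20056 coding genes in the RefSeq gene table, starts were placed for 10642, and 9843 had promoter H3K9ac. Many genes were thus unnamed, and a missing name alone does not show loss of a gene or absence of a cell type. The part of other cells in any result was not tested.

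Most acetylated sites carried both marks. H3K27ac lay within 1 kb of 64.8% of H3K9ac peaks (95% exact Clopper-Pearson interval 64.2 to 65.5), and H3K9ac lay within 1 kb of 85.5% of H3K27ac peaks (84.9 to 86.0). These intervals, like all below, cover counting error only. The order of the shares was the other way round in astromal spheroids, where 86.0% of 7141 H3K9ac peaks had H3K27ac and 52.7% of 14489 H3K27ac peaks had H3K9ac. In each condition the shorter list had the higher share, and list length and condition cannot be told apart. With the stromal lists held to their highest 10000 peaks each, the shares were 67.4% for H3K9ac and 71.0% for H3K27ac.

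Partners lay close together. Of all H3K9ac peaks, 30.5% had an H3K27ac centre within 100 bp, and of all H3K27ac peaks 41.1% had an H3K9ac centre that near. Among peaks with a partner the median distance was 115 bp for H3K9ac and 110 bp for H3K27ac. Few peaks fell just outside the window: the nearest centre of the other mark was 1 to 2 kb away for 4.66% of H3K9ac peaks and 2.51% of H3K27ac peaks. More than 10 kb separated 26.5% of H3K9ac peaks and 9.23% of H3K27ac peaks from the other mark. When the peak intervals themselves had to overlap, 39.9% of H3K9ac peaks and 53.7% of H3K27ac peaks were shared.

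Strong peaks had a partner more often than weak ones, in both lists. H3K9ac peaks with H3K27ac had a median of 30.4 normalised tags, and those without had 19.8. As percentiles of the H3K9ac list these medians were 62.4 (quartiles 38.0 and 82.2) and 28.8 (14.4 and 51.0). H3K27ac peaks with H3K9ac had a median of 11.6 normalised tags and those without had 9.31, at percentiles 51.9 (26.7 and 78.0) and 32.3 (15.2 and 55.9). The quartile ranges overlapped in both lists. In the lowest of 10 equal steps of rank 32.7% of H3K9ac peaks had H3K27ac (30.9 to 34.6), and in the highest step 92.1% (90.9 to 93.2). In the H3K27ac list the same shares were 72.7% (70.6 to 74.7) and 94.5% (93.2 to 95.6), a narrower span. H3K27ac peaks also differed in how far they stood above their surroundings by the authors' own folds. Their median fold over the surrounding 10 kb was 7.49 with H3K9ac and 5.29 without, where the authors required 4, and it was below 5 in 14.8% and 40.6% of them. Fold over input differed less, at 18.8 with H3K9ac and 16.1 without.

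**Figure D1:**
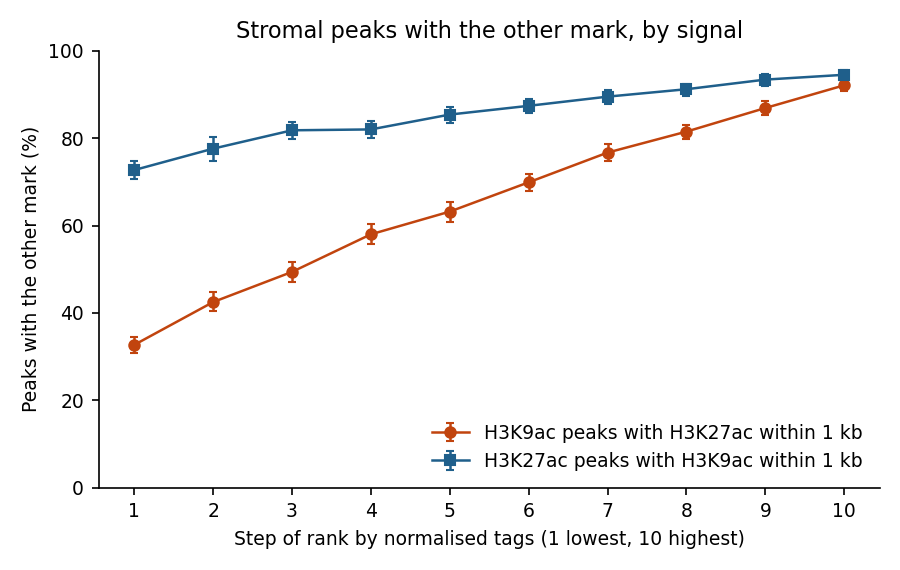
Share of stromal peaks with the other mark within 1 kb (vertical axis, %) in each of 10 steps of rank by normalised tags (horizontal axis), with 95% exact intervals that cover counting error only; orange circles are H3K9ac peaks and blue squares H3K27ac peaks. The H3K9ac line climbs between 32.7% and 92.1% and the H3K27ac line between 72.7% and 94.5%, so the lists differ most among weak peaks.

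H3K9ac peaks with H3K27ac lay at promoters more often than those without, and the size and direction of the difference depended on the strength of the peaks. Within 1 kb of a transcription start, by the deposited distance, lay 80.1% of H3K9ac peaks with H3K27ac (79.4 to 80.8) and 69.8% of those without (68.7 to 70.8). The deposited annotation placed 44.3% and 31.4% in the promoter class, 28.9% and 36.1% in introns, and 12.2% and 17.6% between genes. With both lists held to peaks at or above their median level, the promoter difference of 10.3 percentage points became -0.124. Within the 10 steps of H3K9ac rank the share near a start was 47.5% with H3K27ac and 56.8% without in the lowest step, 80.9% and 78.2% in step 6, and 91.0% and 83.3% in the highest step. Turned round, H3K27ac accompanied 72.2% of H3K9ac peaks in the promoter class, 59.6% of those in introns and 56.1% of those between genes (71.2 to 73.2, 58.4 to 60.8 and 54.3 to 57.9).

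**Figure D2:**
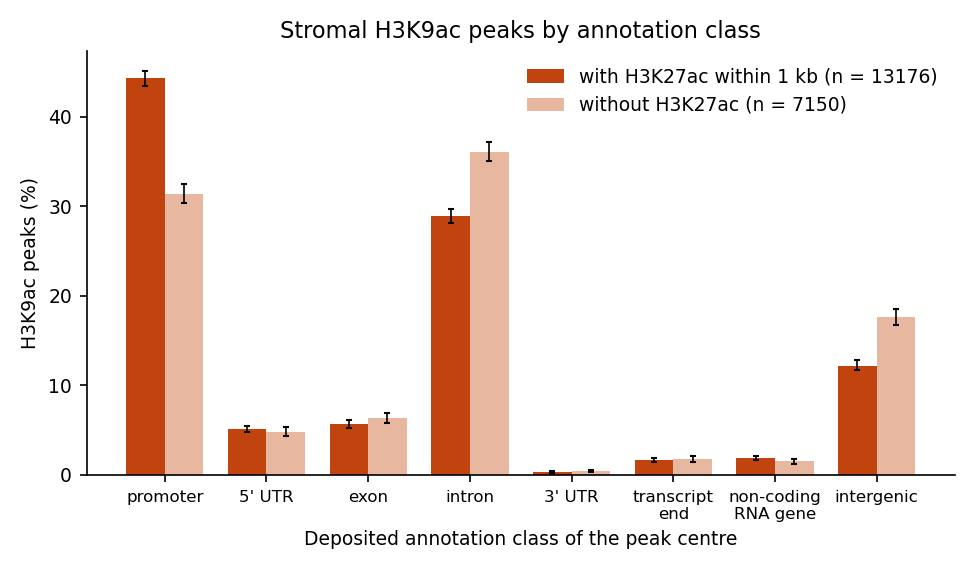
Share of stromal H3K9ac peaks (vertical axis, %) in each deposited annotation class (horizontal axis), with bars that start at 0 and 95% exact intervals for counting error; dark bars are the 13176 peaks with H3K27ac and pale bars the 7150 without. The promoter bars stand at 44.3% and 31.4%, the intron bars at 28.9% and 36.1% and the intergenic bars at 12.2% and 17.6%.

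H3K27ac peaks without H3K9ac lay far from the starts that could be placed. Within 1 kb of a placed start lay 76.0% of H3K27ac peaks with H3K9ac (75.2 to 76.7) and 6.66% of those without (5.65 to 7.78), and more than 5 kb away lay 16.2% and 81.0%. Only starts named by an H3K9ac peak of either condition could be placed, so much of this contrast is built into the measure. Ranks were compared within distance classes that carry the same limit, since a peak far from any placed start can lie at a start that was not placed. More than 5 kb from a placed start, the 2092 H3K27ac peaks with H3K9ac had a median of 13.4 normalised tags (percentile 62.9) and the 1777 without had 9.31 (percentile 32.3). H3K27ac peaks with H3K9ac thus ranked higher beyond 5 kb than within 1 kb of a start, where their median was 11.6 (percentile 51.9). In the H3K9ac list the order was the opposite, with 22.5 normalised tags beyond 5 kb (percentile 38.0) and 31.7 within 1 kb (percentile 65.9) for peaks with H3K27ac.

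Around the starts of coding genes both marks formed 2 shoulders, 1 on each side of a gap. Between 100 and 200 bp downstream lay 14.1% of H3K9ac peaks with H3K27ac, and in the 100 bp just upstream of the start 1.63%. Of H3K9ac peaks within 1 kb of a coding start, 61.2% with H3K27ac (60.2 to 62.2) and 67.1% without (65.7 to 68.5) lay downstream. More than 500 bp downstream, inside the transcribed region, lay 14.1% and 23.7%. H3K27ac peaks with H3K9ac were spread almost evenly, with 51.2% downstream (50.2 to 52.2). Of the 122 H3K27ac peaks there without H3K9ac 28.7% were downstream (20.9 to 37.6), and 47.5% lay more than 500 bp upstream, against 11.6% of those with H3K9ac. Most H3K27ac peaks without H3K9ac near a start thus lay upstream of it. Starts were placed from H3K9ac peaks, which lay mostly downstream of them. A centre more than 1 kb from such a peak can more easily fall upstream of the start. Part of this side difference is therefore built into the pairing, and how much was not tested.

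**Figure D3:**
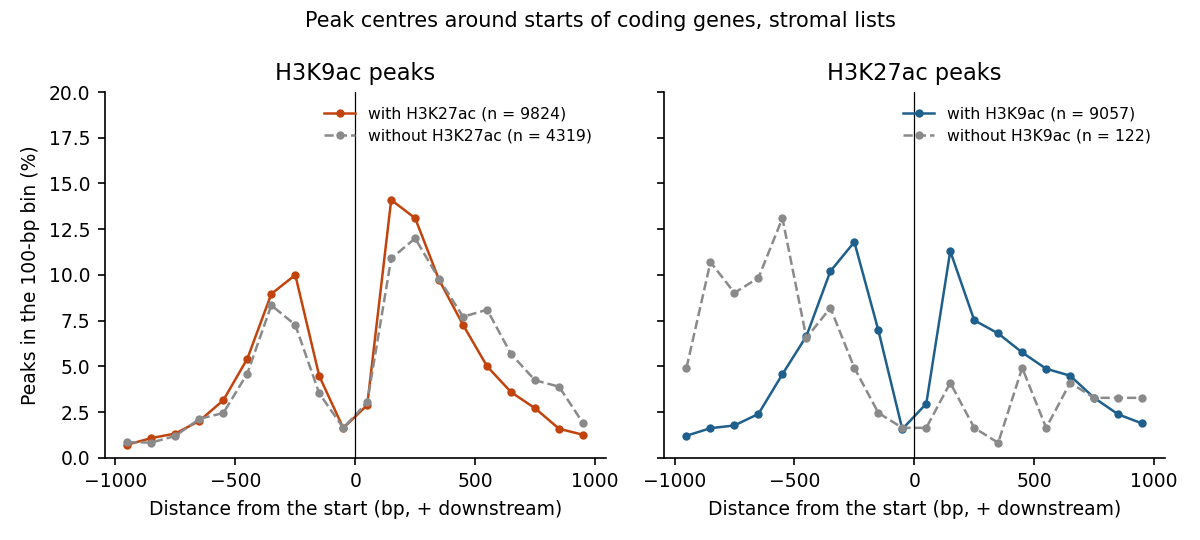
Distance of peak centres from the start of the nearest coding gene (horizontal axis, bp, positive downstream) as a share of the peaks within 1 kb in bins of 100 bp (vertical axis, %); the left panel holds H3K9ac peaks and the right panel H3K27ac peaks, solid lines with and dashed lines without the other mark. Solid lines show a shoulder on each side of a gap at the start, the dashed H3K9ac line runs higher beyond 500 bp downstream (23.7% against 14.1%), and the dashed H3K27ac line, over 122 peaks, is highest upstream.

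Peaks with both marks were found again in the other condition more often. A peak of the same mark lay within 1 kb in the astromal list for 58.7% of stromal H3K9ac peaks with H3K27ac (57.9 to 59.5) and 20.5% of those without (19.6 to 21.5). For H3K27ac the shares were 90.8% with H3K9ac (90.3 to 91.3) and 51.1% without (49.0 to 53.2). Among peaks at or above the median level of their list the shares were 73.0% and 43.6% for H3K9ac and 95.9% and 69.9% for H3K27ac, so peaks with both marks recurred more often among the strong peaks too. The stromal H3K9ac list held 20326 peaks and the astromal one 7141, and the part of list length in these shares was not tested.

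At the level of genes, starts could be placed for 10642 protein-coding genes, of 20056 in the RefSeq gene table. Peaks centred no more than 1 kb from any start of a gene counted as its promoter peaks. Both marks lay at 6760 genes (63.5%), H3K9ac alone at 3083 (29.0%), H3K27ac alone at 30 (0.282%) and neither at 769 (7.23%). Since a gene was placed only where an H3K9ac peak of either condition named it, the small number with H3K27ac alone says nothing about other genes. Of the 9843 genes with promoter H3K9ac, 68.7% also had promoter H3K27ac (67.8 to 69.6), and every gene list below is read against this share. It was 29.7%, 60.5%, 74.4%, 85.0% and 93.7% in 5 levels of summed promoter H3K9ac, lowest to highest. Genes with both marks had 2 or more promoter H3K9ac peaks in 65.3% of cases, and genes with H3K9ac alone in 38.9%. Another 12.1% of the genes with H3K9ac alone had H3K27ac 1 to 5 kb from a start.

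Promoters that ranked high in both marks belonged to genes of several pathways. SIAH1, a ubiquitin ligase, had 219.3 normalised tags of H3K9ac and 132.0 of H3K27ac, with 4 promoter peaks of each mark. KMT2E, a SET-domain chromatin regulator, had 187.6 and 87.9. Its highest H3K9ac peak lay at chr7:104653749-104653959 (hg19), in the promoter class, and its highest H3K27ac peak at chr7:104653813-104653987, so these intervals overlapped. UBE2D3, a ubiquitin-conjugating enzyme, had 174.3 and 78.4. Tags of a gene are summed over all its placed starts, and UBE2D3 had peaks at more than 1. Its highest H3K9ac peak (chr4:103748446-103748656, hg19) and its highest H3K27ac peak (chr4:103789622-103789796) lay at different starts. PPIL3, a cyclophilin-type prolyl isomerase, had 181.0 and 76.8. ATP5J, a subunit of the mitochondrial ATP synthase, had 163.8 and 90.8. These 5 stood at or above percentile 99.7 of the genes with both marks, in each mark.

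Some strong H3K9ac promoters had no H3K27ac peak at all. ZFP36L2, which binds AU-rich elements in mRNA, had 138.7 normalised H3K9ac tags in 3 peaks, the most of any gene with H3K9ac alone, and no H3K27ac peak within 5 kb. KARS (lysyl-tRNA synthetase) and TERF2IP (the telomere protein RAP1) share a promoter, which had 133.5 normalised tags. GPBP1, which binds GC-rich promoters, had 129.4, and MAF1 (a repressor of RNA polymerase III) and SHARPIN (a subunit of the linear ubiquitin ligase), again with 1 shared set of peaks, had 128.1. FAM117B had 117.6, the scaffold gene DLG1 116.3, IFT80, needed for transport in cilia, 113.6, and GSE1 111.0. Of these 10 genes, KARS, TERF2IP and FAM117B had an H3K27ac peak 1 to 5 kb away and the other 7 had none within 5 kb. A missing peak is a site that did not pass the authors' thresholds, not one shown to lack the mark.

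Among the 30 genes with H3K27ac alone, 21 had an H3K9ac peak 1 to 5 kb from a start (70.0%, 50.6 to 85.3). SPAG7 had the most H3K27ac, 72.7 normalised tags in 3 peaks, and HNRNPUL2, an RNA-binding protein of the hnRNP U family, had 47.7 in 2 peaks. HEXIM1 had 41.3 in 1 peak at chr17:43225224-43225398 (hg19), and no H3K9ac peak within 5 kb. HIST2H2BE had 28.5, and 2 H3K9ac peaks within 5 kb. MCTP1, a calcium-binding membrane protein, and TNRC18 each had 27.3, TOB1, an antiproliferative gene, 26.8, the transcription factor KLF6 25.0, and PTMA (prothymosin alpha) 24.4. SCD, the desaturase that makes monounsaturated fatty acids, had 21.5 and no H3K9ac within 5 kb. With the promoter window at 500 bp the class held 277 genes and with 2.5 kb it held 20, so its size depended on the window.

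Where both marks were present their levels went together only in part. Across the 6760 genes Spearman's rho between the summed promoter tags of the marks was 0.48, and it was 0.48 for the highest peak of each promoter. The genes share libraries and the same promoters in both measures, so rho is a description. Of the 692 genes at or above percentile 90 of H3K9ac, 39.7% also stood there for H3K27ac, and of the 672 at or above percentile 90 of H3K27ac, 40.9% stood there for H3K9ac. The H3K9ac percentile exceeded that of H3K27ac by at least 50 points at 326 genes (4.82%), and the H3K27ac percentile exceeded that of H3K9ac by as much at 361 (5.34%).

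Genes at either end were named among those with at least 20 tags of each mark. H3K9ac ranked higher at DPYSL2 (CRMP2, a regulator of microtubules), with 155.9 normalised tags of H3K9ac in 5 peaks and 11.6 of H3K27ac in 1, a gap of 70.2 percentile points. NADK2, the mitochondrial NAD kinase, had 113.7 and 11.6, a gap of 67.6. STARD7, which carries phosphatidylcholine to mitochondria, had 99.1 and 11.6 (63.4), KLHL22, an adaptor of a ubiquitin ligase, 111.0 and 12.8 (63.1), and C21orf33 95.1 and 11.6 (61.8). Each of these 5 had 2 or more H3K9ac peaks beside 1 H3K27ac peak. By the highest peak alone the gaps were 25.1 (DPYSL2), 48.7 (NADK2), 31.8 (STARD7), 34.4 (KLHL22) and 40.1 (C21orf33), all under 50 points. The 11.6 normalised tags of H3K27ac are 20 tags, the fewest allowed here, so larger gaps at lower H3K27ac were not named. Without that floor, H3K9ac stood at least 50 points higher at 346 genes by the highest peak. H3K27ac ranked higher at ERCC1, a subunit of a nuclease of nucleotide excision repair. It had 27.7 normalised tags of H3K9ac and 54.1 of H3K27ac, a gap of -88.9. KDM3A, a demethylase of histone H3 lysine 9, had 26.4 and 39.6 (-84.4). ABCC10, a drug transporter, had 26.4 and 36.59 (-81.5), SETD5 33.0 and 47.7 (-80.8), and C6orf48, a host of small nucleolar RNAs, 33.0 and 47.1 (-80.6). Each of these 5 had 1 H3K9ac peak beside 2 or 3 H3K27ac peaks. The 26.4 normalised tags of H3K9ac at KDM3A and ABCC10 are 20 tags, again the fewest allowed. By the highest peak the gaps were -74.7 (ERCC1), -69.6 (KDM3A), -40.8 (ABCC10), -36.7 (SETD5) and -56.7 (C6orf48).

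**Figure D4:**
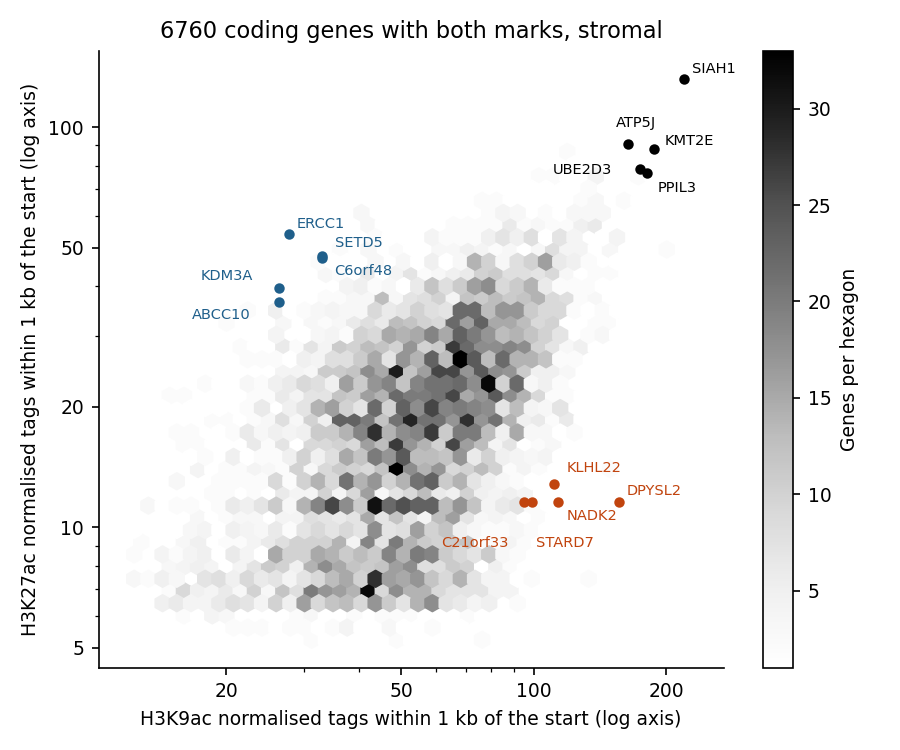
Normalised tags within 1 kb of the start for H3K9ac (horizontal) and H3K27ac (vertical), both on log axes, for the 6760 coding genes with both marks; grey hexagons are darker where they hold more genes, and points are the named genes (black high in both, orange higher in rank for H3K9ac, blue higher in rank for H3K27ac). The cloud slopes upward with a wide spread (rho 0.48), SIAH1 stands at its upper right, and DPYSL2 and ERCC1 lie at opposite edges.

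Gene lists differed in how often an H3K9ac promoter also had H3K27ac. Counts are over the members with promoter H3K9ac. These were 72 of 78 ribosome genes, 29 of 50 clustered histone genes and 12 of 57 Polycomb-bound developmental genes. Of 18 lists, 9 lay above the 68.7% of all genes and 9 below. The interval lay wholly above it for 3 lists (ribosome, proteasome, respiratory chain) and wholly below it for 4 (clustered histone, immediate early, matrix, and epithelial genes). Of these 7 lists only the epithelial one changed sides under the 5 other promoter windows and peak thresholds tried, as given beside its values. The lists were chosen with earlier results of these data known, and members of 1 list can share a promoter. Since H3K27ac was more frequent at high H3K9ac, each list is also set beside the share over all genes at the same 5 levels of H3K9ac.

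Genes of protein synthesis, protein breakdown and respiration carried both marks most often. Of 72 genes of the cytosolic ribosome with promoter H3K9ac, 68 also had H3K27ac (94.4%, 86.4 to 98.5), against 76.4% of all genes at the same H3K9ac levels. RPS27A had 99.1 normalised tags of H3K9ac and 50.7 of H3K27ac, and RPL35A 85.9 and 57.6. RPL38, RPS15, RPS4X and RPS7 had H3K9ac alone, at 22.5 to 56.8 normalised tags. Of 31 proteasome genes 28 had both marks (90.3%, 74.2 to 98.0, against 77.9%), among them PSMD7, a subunit of the regulatory particle, with 104.4 and 36.0. Of 49 genes of the respiratory chain 43 had both (87.8%, 75.2 to 95.4, against 75.7%). COX4I1, of cytochrome c oxidase, had 88.5 normalised tags of H3K9ac and no H3K27ac. Of these 3, only the interval of the ribosome list lay wholly above the share at equal H3K9ac.

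The metabolic lists below fell on either side of the share of all genes, but none clearly departed from it. Each interval included both that share and the share at equal H3K9ac. In the list of the amino acid response and one-carbon metabolism 18 of 21 H3K9ac promoters had H3K27ac (85.7%, 63.7 to 97.0, against 78.7% at equal H3K9ac). SLC3A2, the heavy chain of amino acid transporters, had 177.0 normalised tags of H3K9ac and 73.4 of H3K27ac, PSAT1, of serine synthesis, 111.0 and 41.29, and MTHFD2, of the mitochondrial folate cycle, 103.1 and 26.7. Of 22 genes of cholesterol synthesis 18 had both (81.8%, 59.7 to 94.8, against 72.3%), with FDPS at 71.3 and 34.3. Of 18 glycolytic genes 12 had both (66.7%, 41.0 to 86.7, against 75.4%). ENO1 had 79.3 and 23.9, whereas TPI1 (88.6), PKM (52.9) and GAPDH (38.3) had H3K9ac alone. TPI1 and GAPDH did have H3K27ac 1 to 5 kb away, and among peaks at or above the median of each list 5 of 15 glycolytic genes had both (33.3%, all genes 54.5%). In the acetyl-CoA and fatty acid list 9 of 16 had both (56.2%, 29.9 to 80.2, against 74.7%). ACACA, the acetyl-CoA carboxylase that commits carbon to fatty acids, had 169.1 and 50.04, and ACLY, which makes acetyl-CoA in the cytosol, 37.0 and 11.1. FASN (55.5), SLC25A1 (51.6) and the pair HADHA and HADHB on 1 promoter (85.8) had H3K9ac alone. With a promoter window of 500 bp the cholesterol list had 13 of 22 and the acetyl-CoA list 4 of 13, both below the 61.3% of all genes.

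Clustered histone genes were the list furthest below the share at equal H3K9ac. Of 29 with promoter H3K9ac, 10 had H3K27ac (34.5%, 17.9 to 54.3), against 68.7% of all genes at the same levels. HIST1H2BN had 91.2 normalised H3K9ac tags and no H3K27ac within 5 kb, and HIST1H2BL and HIST1H2AI, on 1 promoter, had 76.6 and none. HIST1H4H had both marks, at 83.2 and 36.6. Several pairs in this list are divergent and share their peaks, and the genes are near-identical copies, to which reads may be assigned with uncertainty.

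Fewer immediate early and growth factor feedback genes had H3K27ac at the start, and some had it nearby. Of 27 with promoter H3K9ac, 13 had promoter H3K27ac (48.1%, 28.7 to 68.1), against 69.6% at equal H3K9ac, just above the interval. ATF3 (72.7 normalised H3K9ac tags), FOSL2 (60.8), BTG1 (60.7), MYC (56.8), FOSB (42.2) and EGR1 (27.7), all regulators of transcription or growth induced by signals, had no H3K27ac within 1 kb of a start but 1 or 2 H3K27ac peaks within 5 kb. DUSP1, a phosphatase of MAP kinases, had both marks at 97.7 and 15.7, and MCL1, a survival factor, 63.4 and 29.7. With a promoter window of 500 bp 6 of 20 had both. With H3K27ac counted out to 5 kb, a choice made after seeing these values, 19 of the 27 had it (70.4%), against 72.5% of all genes with promoter H3K9ac.

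A smaller share of matrix and adhesion genes with promoter H3K9ac had H3K27ac than of all such genes. The intervals of the matrix, epithelial, TGF-beta and mesenchymal lists all included the share at equal H3K9ac. Of 37 genes for matrix, integrins and hyaluronan receptors 21 had promoter H3K9ac. Among these, 8 had H3K27ac within 1 kb (38.1%, 18.1 to 61.6, against 60.1% at equal H3K9ac). With the wider window of 5 kb the count was again 8. CD44, the main receptor for hyaluronan, had 70.0 normalised H3K9ac tags in 2 peaks and no H3K27ac within 5 kb, as did the integrins ITGA5 (60.8) and ITGB1 (47.6). HMMR, another hyaluronan-binding protein, had both marks at 84.5 and 36.0, and TIMP1, an inhibitor of matrix proteases, 63.4 and 32.6. Of 26 epithelial and ductal genes 10 had promoter H3K9ac, and 3 of these had both marks (30.0%, 6.67 to 65.2, against 42.7%). They were KRT8 at 26.4 and 23.27, KRT18 at 26.4 and 13.4, and MUC1 at 44.9 and 15.1. This share rested on few genes and was 0 of 6 with a promoter window of 500 bp, but above that of all genes among the highest 10000 peaks (3 of 4, all genes 66.4%) and with at least 20 tags (3 of 5, all genes 57.9%). OCLN, of tight junctions, had 54.1 of H3K9ac alone. Of 27 genes of the TGF-beta and YAP pathways 19 had promoter H3K9ac, and 10 of these had both (52.6%, 28.9 to 75.6, against 68.5%). YAP1 had 105.7 and 27.3, WWTR1 (TAZ) 84.6 and 23.9 and SMAD2 74.0 and 11.1, and the target ID1 had 75.3 of H3K9ac and no H3K27ac within 5 kb. With a promoter window of 500 bp 5 of 17 genes of these pathways had both. Of 22 mesenchymal genes 7 had promoter H3K9ac, and 4 of these had both (57.1%), with VIM at 92.5 and 20.4. Among the highest 10000 peaks it was 4 of 4, which put this list above all genes.

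The intervals of the remaining lists included the share of all genes. They were hypoxia and NRF2 targets (16 of 22, 72.7%), acetyltransferases, deacetylases and acetyl readers (24 of 33, 72.7%), DNA replication and mitosis (19 of 27, 70.4%), inflammatory and interferon genes (16 of 23, 69.6%) and Polycomb-bound developmental genes (6 of 12, interval 21.1% to 78.9%). The hypoxia and NRF2 list lay below the share of all genes with a promoter window of 500 bp (9 of 20, all genes 61.3%) and with each of 3 stricter peak thresholds (such as 9 of 17 with at least 20 tags, all genes 57.9%). The inflammatory list lay below it with 500 bp (11 of 23), with 2.5 kb (16 of 24, all genes 70.8%) and with at least 20 tags (10 of 19). NQO1, an NRF2 target, had 91.2 normalised tags of H3K9ac and 79.7 of H3K27ac, and VEGFA 109.6 and 56.4. Among genes that handle the mark itself, BRD2, a reader of acetyl-lysine, had 47.6 and 80.3 and the deacetylase HDAC6 72.7 and 40.7. KAT2A (GCN5, 39.6), KAT2B (PCAF, 27.7) and EP300 (p300, 31.7) had H3K9ac alone.

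**Figure D5:**
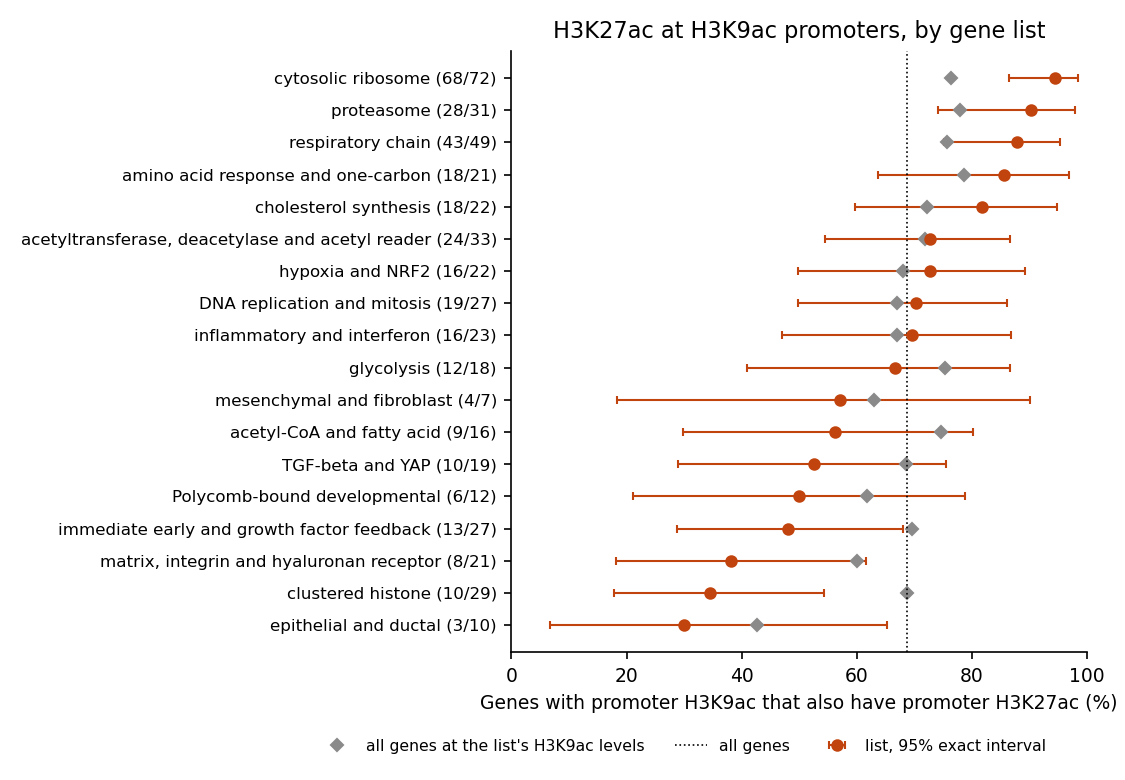
Share of genes with promoter H3K9ac that also had promoter H3K27ac (horizontal axis, %) for 18 gene lists (rows, with counts); orange points are lists with 95% exact intervals for counting error, grey diamonds all genes at the same H3K9ac levels, and the dotted line all genes (68.7%). The ribosome list (94.4%) stands right of its diamond, and the clustered histone (34.5%) and immediate early (48.1%) lists stand left of theirs. In these lists the diamond lies beyond the interval, only just so in the immediate early list.

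Promoter letters differed between the classes. Of the 10642 placed genes 84.1% matched a RefSeq promoter of 300 bases, 250 before and 50 after the start. The ETS core CCGGAAG was in 24.9% of promoters with both marks (23.8 to 26.0), in 15.5% with H3K9ac alone (14.1 to 17.0) and in 10.3% of all 35116 promoters of the table. The GC box GGGCGG was in 70.9% with both marks, 79.2% with H3K9ac alone and 45.0% of all. Both differences had 1 direction in each of the 5 levels of H3K9ac. In the lowest level the ETS core was in 20.4% with both marks and 11.5% with H3K9ac alone, and in the highest in 25.8% and 21.5%. The CCAAT box was in 38.5% and 33.3%, against 34.6% of all, and the TATA box TATAAA in 4.37% and 5.16%, against 11.5%. Other motifs were searched as well. The AP-1 site TGANTCA was in 4.37% and 2.86%, against 7.71%, with 1 direction at each level. NRF1 sites were in 2.94% and 1.85%, YY1 sites in 2.80% and 1.57%, CRE sites in 3.83% and 2.86% and E-boxes in 11.2% and 9.84%. These last differences did not keep 1 direction at every level. Matches were sought on both strands and can overlap those of another motif. Of the 29 matched promoters with H3K27ac alone, 65.5% held a CCAAT box (45.7 to 82.1), 17.2% a TATA box (5.85 to 35.8) and 3.45% an ETS core (0.0873 to 17.8). Most of these 29 held no TATA box, unlike the HEXIM1 and HIST2H2BE sequences above. Median G and C was 64.7% with both marks, 69.7% with H3K9ac alone and 62.7% with H3K27ac alone. The higher G and C with H3K9ac alone was seen at every level of H3K9ac, with 63.3% (both) and 68.7% (alone) in the lowest and 65.0% and 70.0% in the highest. The part of G and C content in peak calling was not tested.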

How the data were processed

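The 4 ChIP libraries had a peak list each, and 4 input libraries were not used here. The submitters' processing notes name CASAVA 1.8.2, Bowtie, HOMER and the build hg19. H3K27ac peaks were called against input at an FDR of 0.001, with at least 4-fold over input and over the surrounding 10 kb (p-value at most 1.00e-04), per the file headers. There 12583 of 30936 putative peaks were removed by the local filter and 3259 by the input filter. Per the file headers, HOMER annotated the H3K9ac lists. How H3K9ac peaks were called is not given in the sources used here. Each list came from 1 library, not from pooled libraries.

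The signal used was the deposited tag count per peak, normalised by the authors to 10000000 tags. H3K9ac values stepped by 1.321, the worth of 1 tag, and all lay within 0.1 of a whole number of tags (largest distance 0.037), which gave tags and an estimated depth. The deposited folds, the findPeaks score and the fraction of tags in focus are the authors' values, used to describe or rank peaks within a list. The deposited p-value columns were not used.

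Starts were placed on hg19 from the transcript and distance that each H3K9ac peak of either condition names. Strand came from several peaks of 1 transcript (7643 transcripts), the RefSeq table (5872) or another transcript of the gene (172). For 978 both positions were kept. The 287 of unknown strand with no near peak and the 3 in conflict were left out. Where both could be compared, 99.8% of 6190 strands matched. Symbols are those of the files.

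Shares carry exact Clopper-Pearson intervals at 95%. Levels of H3K9ac are 5 groups of genes by summed promoter tags. The pairing and placing were checked on simulated lists. Members and gene lists were chosen with earlier results of these data known. Named genes are the 5 highest in both marks, the 10 highest with either mark alone, and the 5 at each end of the rank difference with at least 20 tags of each mark. List members were named as examples after their values were seen. Alternatives were other distances and promoter windows, stricter lists, merged sites, the highest peak and the score. Python 3.11.15, pandas 2.3.3, NumPy 2.4.6, SciPy 1.17.1 and matplotlib 3.10.9 were used.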

Additional observations from a re-analysis of the deposited data

How the results depend on the processing

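Of 61 alternative values for the comparisons, 18 stayed within the counting interval of the reported value or, for counts of genes, within 1.5 times of it, 42 moved beyond it and 1 changed sign. The share of H3K9ac peaks with H3K27ac was 53.1% for centres within 500 bp, 69.5% within 2 kb, 39.9% for overlap, 56.4% for peaks at or above the median of each list, 67.4% for the highest 10000, 51.0% with H3K27ac at least 6-fold over 10 kb and 8-fold over input, and 61.8% for merged sites. In the same order the share of H3K27ac peaks with H3K9ac was 75.1%, 88.0%, 53.7%, 75.3%, 71.0%, 92.6% and 84.0%. The promoter difference of H3K9ac peaks, with minus without, was 5.42, 12.0, 4.37, -0.124 and 0.977 percentage points under the first 5 of these, and 13.8 and 8.53 with promoter windows of 500 bp and 2.5 kb. For H3K27ac it was 48.5, 73.5, 28.1, 52.9 and 50.1, and 53.0 with 500 bp. The median percentile difference was 32.4, 29.9, 27.8, 21.4 and 22.2 points for H3K9ac and 18.5, 25.1, 13.5, 8.68 and 14.3 for H3K27ac, so it kept its direction in each. Genes with both marks numbered 3710 at or above the median and 4415 in the highest 10000. Genes with H3K27ac alone numbered 277 with 500 bp, 361 at or above the median, 637 in the highest 10000 and 187 with at least 20 tags. Gene lists kept their side of the share over all genes in 15 (500 bp), 17 (2.5 kb), 16 (median), 15 (highest 10000) and 14 (at least 20 tags) of 18 lists. Shorter lists and windows hold fewer partners by construction, and the cause of other changes was not tested. Peaks rest on few tags (median 20 in both lists), so a mark with no peak at a site was not detectable there at this depth and threshold, which does not show that it is absent. No paired analysis was possible because each mark and condition had 1 library.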

Other observations

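The strongest distal sites carried both marks, and the highest distal peaks of 1 mark alone lay at other genes. Near CROCC, a gene of the ciliary rootlet, a site 16.9 kb from the nearest placed start had 97.8 normalised tags of H3K9ac at chr1:17231457-17231667 (hg19) and 83.2 of H3K27ac at chr1:17231477-17231651, the highest peak of each mark more than 5 kb from a start. An H3K9ac peak 56.7 kb from EZH2, the Polycomb methyltransferase, had 80.6 normalised tags with an H3K27ac centre 2 bp away. An H3K9ac peak of 63.4 normalised tags at a CpG island 20.4 kb from the nearest MALAT1 start had no H3K27ac within 5 kb. The highest distal H3K27ac peaks without H3K9ac were nearest to AMBRA1, an autophagy gene (35.5 normalised tags), and IFNGR2, a chain of the interferon gamma receptor (34.3), at 4.12-fold and 4.94-fold over the surrounding 10 kb by the authors' values. These genes are only the nearest placed ones, and no link between site and gene was measured.

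Distal H3K9ac peaks annotated to CpG islands had H3K27ac less often than other distal H3K9ac peaks. More than 5 kb from a start, 43.1% of 726 H3K9ac peaks annotated to CpG islands had H3K27ac (39.5 to 46.8). Of the 2721 others 58.4% had it (56.5 to 60.2), although the island peaks had the higher median H3K9ac (23.8 and 18.5 normalised tags). The deposited annotation gave islands only outside promoters, exons and transcript ends, so the others can include island peaks in those classes. Among H3K9ac peaks in repeats the share was 64.6% in SINEs (59.7 to 69.3), 64.1% in LINEs (57.7 to 70.1) and 52.5% in LTR elements (45.0 to 59.9). Promoters of non-coding RNA genes (66.3% of 784) and pseudogenes (66.7% of 153) with H3K9ac had H3K27ac about as often as coding genes (68.7%). By chromosome the share of H3K9ac peaks with H3K27ac ran between 54.2% (chromosome 22) and 70.6% (chromosome 19), and the share of H3K27ac peaks with H3K9ac between 76.2% (chromosome 13) and 89.4% (chromosome 19). Copy number in this line was not measured here, and its part in these values was not tested.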
